A study of Triticum aestivum with 12 samples.

Results

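A group of 165 wheat probe sets was examined whose signal was lower at low phosphorus in roots of the variety Xindong20 and showed no difference of that size in roots of Xindong23. The probe sets were taken from 61179 on the array, control probe sets left out. A member had a mean over the 3 low-phosphorus (LP) arrays of Xindong20 at least 1.5 (log2) below the mean over the 3 conventional-phosphorus (CP) arrays, with every LP array below every CP array. Its LP and CP means in Xindong23 differed by less than 0.5 in either direction. The members were thus chosen by the LP minus CP differences of both varieties, which are given below as a description without a test. The 4 groups were seedling roots of Xindong20 at LP (0.05 mmol/L phosphorus), Xindong20 at CP (1.0 mmol/L), Xindong23 at LP and Xindong23 at CP, with 3 arrays each. All seedlings grew in Hoagland solution for 14 days and then with 15% polyethylene glycol (PEG-6000), which holds back water from the root, for 7 days. Potassium chloride replaced part of the potassium phosphate at LP. Every plant was under osmotic stress, and no unstressed plants were analysed here. The series calls the 3 arrays of a group biological replicates and does not say whether they came from separate boxes or from pooled seedlings. Arrays are written as LP1 to LP3 and CP1 to CP3.

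Plants take up phosphorus as phosphate through the root. When it is scarce, roots are known to switch on phosphate transporters, secreted phosphatases and the replacement of membrane phospholipids, while growth and much of primary metabolism are scaled down. Varieties of a crop can differ in which transcripts they turn down, and also in which gene copies they carry or express at all. Bread wheat has 3 related subgenomes, so a probe set can read several near-identical gene copies, and a lower signal cannot be assigned to one of them. In whole roots, fewer cells of a type and less RNA per cell cannot be told apart.

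In both varieties LP3 was unlike the other LP arrays. The 3' minus 5' signal difference of ubiquitin, a check of RNA integrity, was 2.84 (log2) on Xindong20 LP3 and 1.16 on Xindong23 LP3, against -0.88 to -0.19 on the other 10 arrays. The poly-A spikes, bacterial transcripts added to the RNA before labelling, averaged 4.85 ± 0.91 at LP and 7.09 ± 0.54 at CP in Xindong20, and 5.37 ± 0.97 at LP and 6.88 ± 0.23 at CP in Xindong23 (log2, SD, n = 3 each; 36 probe sets). The LP minus CP difference of the spikes was thus -2.25 in Xindong20, a size found among the members, and -1.51 in Xindong23, where the members differed by less than 0.5. Of the 36 spike probe sets, 34 met the Xindong20 conditions of the rule, and all 36 failed its Xindong23 condition with a difference below -0.5. None of the 111 control probe sets met the whole rule. The part of RNA integrity and of spike level in the members' LP minus CP values was not tested. The count with a spike covariate in the closing section is for the average difference between the varieties. No phosphate starvation gene carried a name on the annotated part of the array, so the phosphorus status of the roots could not be checked on marker transcripts. Few defining root genes carried a name either, so the root label was not checked on a marker list.

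The 165 members were 0.27% of the probe sets. Their difference in Xindong20 ran from -5.21 to -1.501, with a median of -1.85, which is a 3.60-fold lower signal at LP. The median over all probe sets was -0.05. Of the members, 60 had a signal at least 4-fold lower and 10 at least 8-fold lower at LP. In Xindong23 the median difference was 0.02 (0.03 over all probe sets), with 90 members above 0 and 75 below, and 99 members differed by less than 0.25. Just inside the first threshold lay Ta_5662_1_S1_x_at (-1.501) and TaAffx_24357_1_S1_at (-1.505), and just outside it Ta_29481_1_S1_at (-1.497) and Ta_25239_1_S1_x_at (-1.490). At the other threshold Ta_9561_3_S1_a_at (Xindong23 difference -0.498) and TaAffx_112967_1_S1_at (0.495) were inside, while Ta_8866_1_S1_at (-0.503) and Ta_16917_1_S1_at (0.505) were outside. The members thus have no natural edge at either threshold. In the probe set IDs, dots are written here as _.

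**Figure D1:**
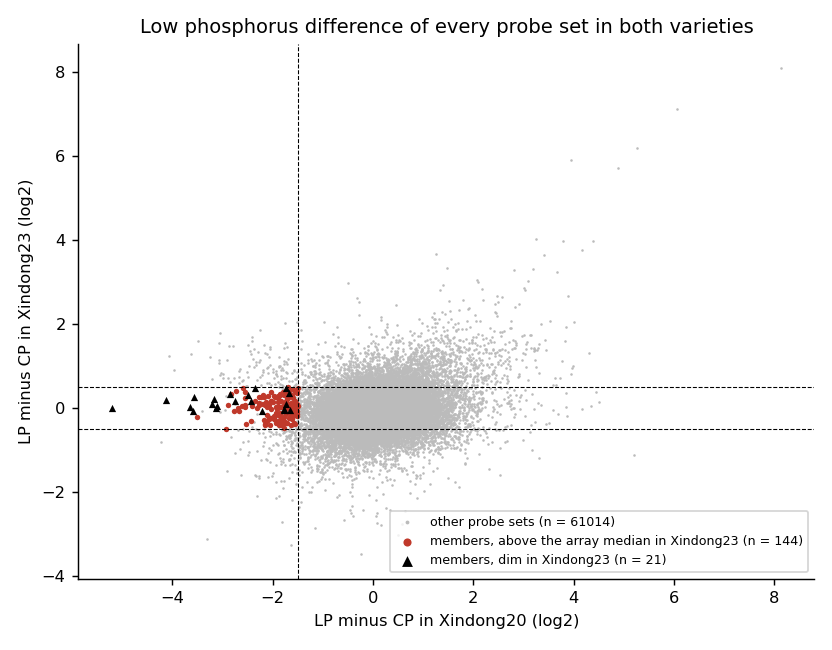
LP minus CP difference (log2) of each of the 61179 probe sets in Xindong20 (x axis) and Xindong23 (y axis), with dashed lines at the thresholds of -1.5 and ±0.5. The 165 members fill the band left of -1.5, and the 21 members that were dim in Xindong23 (triangles) include the most negative differences.

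The limma fit, a linear model across all probe sets with a moderated variance, called 63 of the 165 members lower at LP in Xindong20 at an adjusted p under 0.05, where 0.776% of all probe sets were called lower. It called 0 members in Xindong23, where 0.00654% of all probe sets were called and 3540 had an unadjusted p under 0.05. The rule used both contrasts, so nothing is read from these counts. The test of whether the response differed between the varieties called 1 member, against 0.0196% of all probe sets called with a negative value. It called 0 members with a positive value, against 0.113%. An unadjusted p under 0.05 was found for 113 of the 165 members and for 8510 of the 61179 probe sets. The rule favours a negative value in this test, so nothing is read from these counts either. For the members not called, the difference between the varieties rests on the rule's thresholds and not on a test. The 95% confidence interval of the Xindong23 difference reached down to -1.5 for 46 members and did not for 119. The separation of Xindong20 arrays that the rule asked for, all LP below all CP, was found in 13.6% of all probe sets.

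The members fell into unlike kinds by their level in Xindong23. A level was called dim where the group mean lay below 4.26, the median of the array medians, since signal there is limited by background and a difference against it is a lower bound. The mean over the 6 Xindong23 arrays was dim for 21 members and above that level for 144. For the 21, a lower level at LP could hardly have been seen in Xindong23. Their median level was 3.71 at LP and 6.47 at CP in Xindong20, and 2.54 at LP and 2.44 at CP in Xindong23. The other 144 had a Xindong23 mean above that level, which is no detection limit. For those just above it, such as Ta_3242_1_A1_a_at (Xindong23 mean 4.66), a lower level at LP would also have been limited by background. In Xindong20, 32 of the 165 members were dim at LP and 1 at CP.

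**Figure D2:**
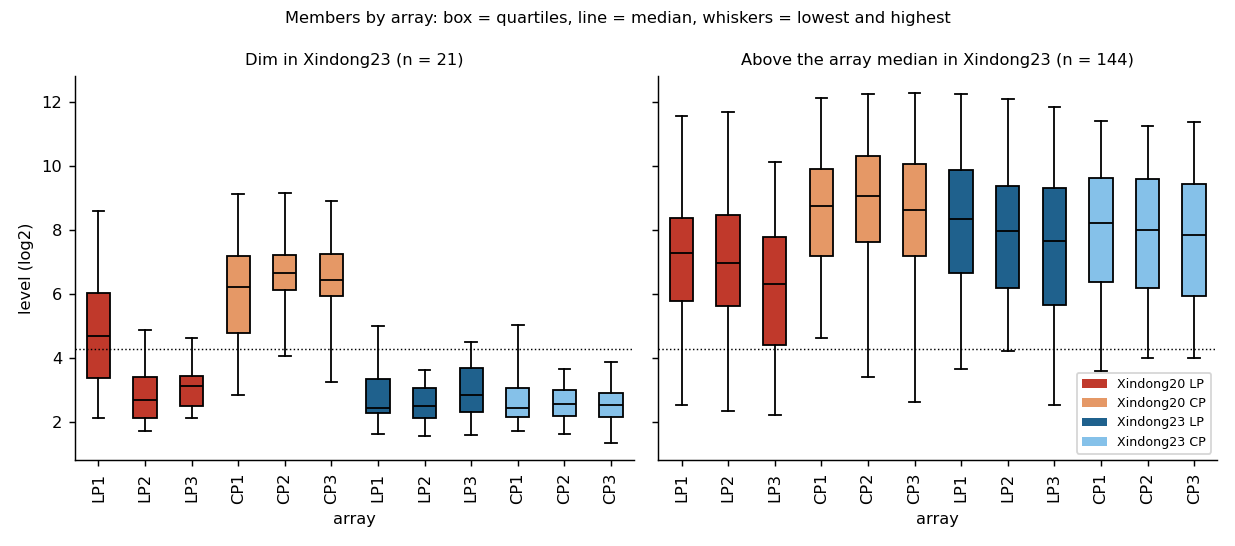
Level (log2) of the members on each of the 12 arrays, split into the 21 members dim in Xindong23 and the 144 above the median of the array medians (dotted line, 4.26). In the left panel Xindong20 LP2 and LP3 lie with the Xindong23 arrays and LP1 lies between them and CP, while in the right panel LP3 has the lowest median, 6.31.

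The 10 members with the most negative differences, 1 per cluster number of the ID, included 9 that were dim in Xindong23. None of them has a gene in the annotation, so they are given by ID. Ta_8835_1_A1_at had 7.51, 1.88 and 2.12 (log2, arrays 1 to 3) at LP and 9.11, 9.14 and 8.90 at CP in Xindong20, a difference of -5.21, or a signal at least 37.0-fold lower. In Xindong23 it had 2.49, 2.11 and 2.07 at LP and 2.24, 1.96 and 2.51 at CP. On the Xindong20 arrays LP2 was thus just below the Xindong23 range, LP3 within it, and LP1 much nearer to CP. Ta_5243_2_S1_a_at repeated this layout, with 6.76, 2.10 and 2.38 at LP and 7.17, 7.29 and 7.54 at CP in Xindong20, and 1.59 to 1.95 over all Xindong23 arrays. Ta_23203_3_S1_at had 6.03, 2.08 and 2.52 at LP and 7.61, 6.68 and 7.30 at CP in Xindong20, and 2.06 to 2.64 in Xindong23. Ta_6210_1_S1_at had 8.57, 3.17 and 4.24 at LP and 9.07, 8.75 and 8.88 at CP in Xindong20, and 3.31 to 4.10 in Xindong23. In these 4 members the mean difference hides 1 array nearer to CP and 2 close to the level of the other variety.

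A further pair of members was laid out alike, with less distance between LP1 and the other LP arrays. Ta_9655_1_A1_x_at had 5.53, 2.62 and 3.03 at LP and 7.02, 6.43 and 7.23 at CP in Xindong20, while all Xindong23 arrays lay between 2.22 and 2.89. Ta_5129_2_A1_a_at had 6.35, 2.68 and 3.16 at LP and 7.50, 6.69 and 7.35 at CP in Xindong20, and 2.63 to 2.93 in Xindong23. TaAffx_104444_1_S1_at differed in that only LP2 lay within the Xindong23 range, although all LP arrays lay below CP. It had 4.58, 2.37 and 4.61 at LP and 7.10, 7.80 and 6.30 at CP in Xindong20, and 2.18 to 2.67 in Xindong23. Ta_27235_1_S1_at had 3.24, 2.11 and 2.71 at LP and 4.95, 6.39 and 6.13 at CP in Xindong20, and 1.60 to 1.87 in Xindong23. For this last member the 3 LP arrays lay close together and above all 6 Xindong23 arrays.

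The remaining pair among the 10 had an uneven CP group. Ta_18507_1_S1_s_at had 2.98, 3.13 and 3.14 at LP and 5.92, 8.93 and 6.78 at CP in Xindong20, with 2.99 to 3.64 in Xindong23. All LP arrays were at the Xindong23 level here, and the size of the difference (-4.13) depended on how high CP2 was. The dimmest member, Ta_18507_2_S1_a_at, shares its cluster number and had 2.11, 2.37 and 2.33 at LP and 2.82, 6.08 and 3.25 at CP. Ta_20205_1_A1_s_at was the one member of the 10 with signal in Xindong23, where it spread from 5.11 to 8.75 over the arrays. It had 4.52, 3.00 and 3.25 at LP and 5.86, 9.10 and 6.36 at CP in Xindong20, and 8.75, 5.11 and 6.26 at LP and 8.19, 6.70 and 5.88 at CP in Xindong23. The close Xindong23 means of this member (6.71 at LP and 6.92 at CP) came from arrays that lay far apart within each group, with LP1 and CP1 the highest.

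**Figure D3:**
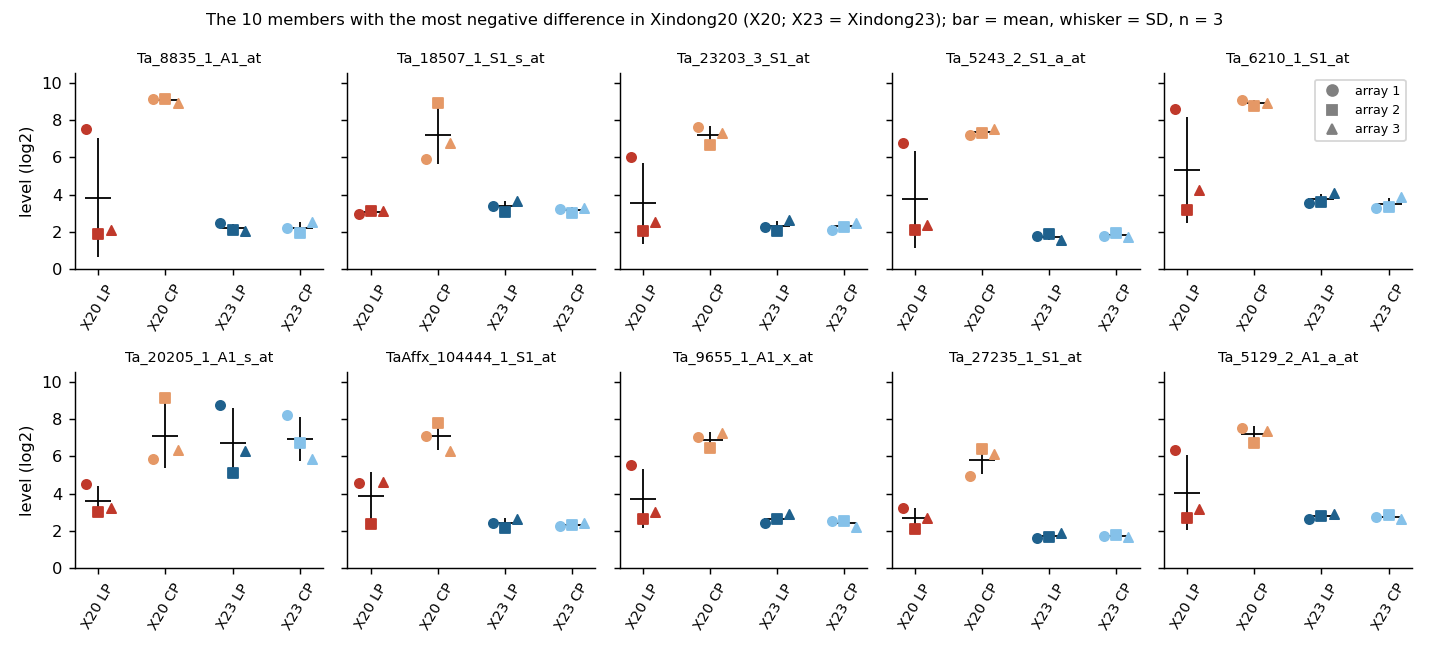
Level (log2) on each array for the 10 members with the most negative difference in Xindong20, with 1 marker shape per array number, the group mean (bar) and SD (whisker, n = 3). For Ta_8835_1_A1_at, Ta_23203_3_S1_at, Ta_5243_2_S1_a_at, Ta_6210_1_S1_at, Ta_9655_1_A1_x_at and Ta_5129_2_A1_a_at the Xindong20 LP1 array lies nearer to CP, while LP2 and LP3 lie near the Xindong23 arrays.

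Such on and off levels were then counted without using the LP arrays of Xindong20 to choose the probe sets, a count added after the layout had been seen. On 114 probe sets, 0.186% of all, every Xindong20 CP array was more than 2 (log2) above every Xindong23 array, and 17 of these were members. The position of each LP array was expressed as a percentage of the gap between the Xindong23 mean (0) and the Xindong20 CP mean (100). LP1 was below 25% for 1 of the 114 probe sets, LP2 for 20 and LP3 for 35. LP1 was above 75% for 101, LP2 for 79 and LP3 for 63. Most of the 114 were therefore near the CP level on each LP array, and a minority was at the Xindong23 level on LP2, LP3 or both. Both LP2 and LP3 were below 25% for 17 probe sets, of which 12 were members. What sets LP2 and LP3 apart from LP1 on these probe sets was not tested, nor was it tested whether all RNA on these arrays came from Xindong20. The LP means of the members with such a layout are to be read with that limit.

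**Figure D4:**
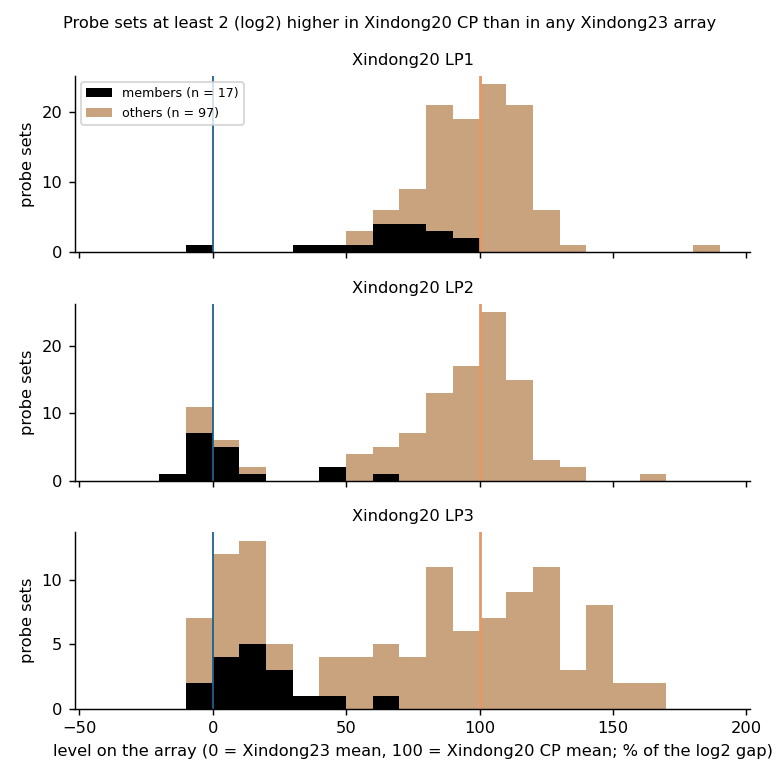
Position of the 3 Xindong20 LP arrays on 114 probe sets that were more than 2 (log2) higher on all Xindong20 CP arrays than on any Xindong23 array, as a percentage of the gap between the Xindong23 mean (0, blue line) and the Xindong20 CP mean (100, orange line). LP1 has 1 probe set below 25%, while LP2 has 20 and LP3 has 35, with the 17 members in black.

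Among the 21 members dim in Xindong23, LP2 was below 25% of the gap for 18 and LP3 for 18, against 5 for LP1. Both LP2 and LP3 were that low for 16 members, and for 11 of these LP1 was not. The median distance below the Xindong20 CP mean was 1.53 on LP1, 3.51 on LP2 and 3.19 on LP3. These 21 probe sets belonged to 17 cluster numbers. Their lower group mean at LP thus rested mainly on LP2 and LP3.

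In the 144 members not dim in Xindong23, LP3 lay the farthest below CP. The median distance below the CP mean was 1.52 on LP1, 1.56 on LP2 and 2.39 on LP3, so that LP1 lay about as far below as in the other 21. Their median level was 7.27, 6.95 and 6.31 on LP1 to LP3 and 8.72, 9.05 and 8.63 on CP1 to CP3 in Xindong20. In Xindong23 it was 8.32, 7.96 and 7.64 at LP and 8.19, 7.99 and 7.84 at CP. LP3 was the lowest Xindong20 LP array for 89 of the 144. Over all 165 members LP3 was the lowest for 57.6%, against 29.6% over all probe sets, and CP2 was the highest CP array for 95 members. Each LP array alone lay at least 1.5 below the CP mean for 85 members (LP1), 98 (LP2) and 140 (LP3), and all 3 did so for 36. The mean of LP1 and LP2 lay at least 1.5 below for 105 members and at least 1.0 below for 145. Without both LP3 arrays the rule chose 165 probe sets, of which 90 were the same as before. Without Xindong20 LP1 it chose 273 and without Xindong20 LP2 368. With a Xindong20 array left out, the separation of LP and CP arrays covers fewer arrays and is easier to meet. These counts are therefore not directly comparable with the 165 of the full rule.

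The flat mean of Xindong23 also covered spread between arrays. All 3 Xindong23 LP arrays lay within 0.5 of the CP mean for 51 members. LP1 was at least 0.5 above the CP mean for 52 members and LP3 at least 0.5 below it for 58. In 55 members at least 1 LP array was 0.5 or more above the CP mean and another 0.5 or more below it. LP3 was at least 1.5 below for 15 members. The median SD between replicates was 0.81 at LP and 0.36 at CP in Xindong20, and 0.52 at LP and 0.23 at CP in Xindong23, against 0.34, 0.18, 0.26 and 0.13 over all probe sets in the same order.

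Ta_6961_1_S1_at was the member called in the test of the difference between varieties. It had 8.98, 7.96 and 8.47 at LP and 10.52, 10.43 and 10.56 at CP in Xindong20, and 10.30, 9.87 and 10.26 at LP and 9.88, 10.20 and 9.89 at CP in Xindong23. The Xindong20 LP arrays lay below all 9 others, and the difference of differences was -2.19 (SE 0.33, limma adjusted p = 0.0455). The rule chose probe sets with such values, so the call is no independent support, and it was past the threshold under 6 of 20 alternative settings (adjusted p from 0.0118 to 0.154). The brightest member, Ta_7703_3_S1_x_at, showed the weight of LP3 instead, with 10.93, 10.86 and 8.23 at LP and 11.44, 12.13 and 11.59 at CP in Xindong20, and 11.04 to 11.84 in Xindong23.

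Whether the members differed between the varieties in general was tested on the average over both phosphorus levels, Xindong20 minus Xindong23. With 3 arrays in each group this contrast is orthogonal to the LP minus CP differences that chose the members. The rule still bears on it, since a probe set that is dim in Xindong23 is flat there and must be bright in Xindong20 at CP to be a member. Limma called 21 members higher in Xindong20 and 9 lower, 18.2% of the 165 together, against 1.82% of all probe sets. Over all probe sets 0.853% were called higher and 0.964% lower. Among probe sets with a mean over all 12 arrays at or above the dim level 2.76% were called, and among the 149 such members 18, or 12.1%. Members dim in Xindong23 can pass this filter through their Xindong20 arrays. The filter therefore does not remove the bearing of the rule on these shares. Without both LP3 arrays 34 members were called, beside 3.15% of all probe sets. Without any 1 of the Xindong23 CP arrays 18 members were called, beside 1.1% to 1.22% of all probe sets. Without Xindong20 CP3 19 members were called, beside 1.36%. The median residual SD of the members was 0.70, against 0.27 over all probe sets and 0.37 over those with a mean at or above the dim level. The median average difference of the members was -0.09 (0.03 over all probe sets), with 76 above 0 and 89 below, so no common direction was seen.

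The 21 members called higher in Xindong20 all had a Xindong23 mean below the Xindong20 LP mean, and 16 of them were dim in Xindong23. Ta_3242_1_A1_a_at was the extreme among those not dim. It had 9.17, 8.66 and 8.80 at LP and 11.37, 10.41 and 10.03 at CP in Xindong20, and 4.94, 4.51 and 4.75 at LP and 4.78, 4.70 and 4.26 at CP in Xindong23. The varieties did not overlap, and the average difference was 5.09 (SE 0.22, limma adjusted p = 6.98e-07), or 34.0-fold. Its LP minus CP difference in Xindong20 (-1.73) was small beside that. The next by size were Ta_8835_1_A1_at (4.21, SE 0.82, limma adjusted p = 0.0284), Ta_5243_2_S1_a_at (3.75, SE 0.67, limma adjusted p = 0.0183) and Ta_6210_1_S1_at (3.48, SE 0.74, limma adjusted p = 0.0448), all lower bounds because Xindong23 was dim. In these 3, LP1 lay nearer to CP than LP2 and LP3 did, and their calls were lost under 8, 5 and 11 alternative settings. All 3 calls were lost without Xindong20 CP2, without Xindong20 CP3 and without any 1 of the Xindong23 CP arrays.

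The 9 members called lower in Xindong20 all had a Xindong23 mean above the Xindong20 CP mean. For these the higher variety was the one without the low-phosphorus difference. Ta_30566_1_S1_at had 5.18, 3.92 and 2.73 at LP and 5.89, 5.68 and 5.55 at CP in Xindong20, and 7.65, 7.37 and 7.46 at LP and 7.58, 7.64 and 7.91 at CP in Xindong23. All Xindong23 arrays lay above all Xindong20 arrays, with an average difference of -2.77 (SE 0.33, limma adjusted p = 0.00127). TaAffx_115792_1_S1_at had 4.98, 3.89 and 4.13 at LP and 6.52, 6.60 and 7.50 at CP in Xindong20, and 6.77 to 7.42 in Xindong23 (-1.42, SE 0.22, limma adjusted p = 0.00879). Ta_9696_1_S1_at (-1.64, SE 0.33, limma adjusted p = 0.0355) and Ta_13701_1_S1_at (-1.37, SE 0.27, limma adjusted p = 0.0325) were called as well and lost the call under 11 alternative settings each. Ta_9696_1_S1_at had 6.44, 6.59 and 8.46 at LP and 9.23, 8.99 and 9.04 at CP in Xindong20 and 10.01, 9.03 and 10.07 at LP and 9.89, 9.90 and 9.68 at CP in Xindong23. The Xindong23 LP2 array lay within the range of the Xindong20 CP arrays, and the other Xindong23 arrays lay above it.

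Over all members, the Xindong23 mean lay below the Xindong20 LP mean for 25, between LP and CP but nearer LP for 51, between and nearer CP for 74, and above the CP mean for 15. At LP, 141 of the 165 were lower in Xindong20 than in Xindong23, with a median difference of -0.90, and at CP 152 were higher, with a median of 0.84. Both are descriptions, since a high Xindong20 CP level and a low LP level favour membership. All 6 Xindong20 arrays lay above all 6 Xindong23 arrays for 8 members, beside 0.829% of all probe sets, and below them for 2, beside 0.664%.

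**Figure D5:**
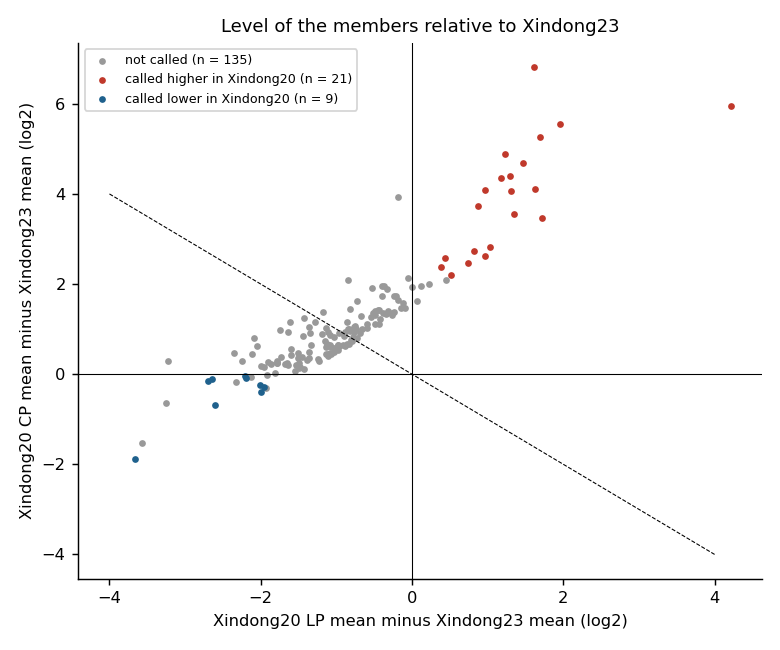
Xindong20 LP mean (x axis) and CP mean (y axis) of the 165 members, each minus the mean over the 6 Xindong23 arrays (log2). The dashed line marks an average variety difference of 0, and the 21 members called higher in Xindong20 (red) and the 9 called lower (blue) lie far from it on either side.

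Other probe sets of the same clusters were set beside the members. They come from the same RNA and may read the same transcripts, so they are no independent support. The 165 members carried 139 cluster numbers, 117 of them with 1 member, 18 with 2 and 4 with 3, so members are not independent of each other. In 51 of these clusters 101 further probe sets were not members. Over all 101 the median difference in Xindong20 was -0.60, and 89 were below 0. Of the 101, 78 were above the dim level at CP in Xindong20, a group that the rule also used. The median difference of these 78 in Xindong20 was -0.97, beside -0.06 over all probe sets of that brightness. Below 0 were 69 of 78 (88.5%), beside 54.5%. In 41.0% all LP arrays lay below all CP arrays, beside 15.8%. Of the 101, 12 had a difference of -1.5 or below themselves. The relatives of the 10 members above included Ta_27235_1_S1_at's single partner, which had a difference of 0.97 in the opposite direction, and the partner of Ta_5243_2_S1_a_at, which was dim and had -0.62. Ta_18507_1_S1_s_at had 3 partners with differences of -2.43 to -0.24, of which 2 were members.

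The kinds of probe set among the members differed from the array as a whole. The suffix _a_at, for probe sets that read alternative transcripts of 1 gene, made up 13.9% of the members, 9.04% of the probe sets at or above the dim level and 5.43% of all. Probe sets with _x_at, in which some probes also match other sequences, made up 17% of the members, 15.1% and 11.1%. Those with the plain suffix _at made up 62.4%, 69.8% and 79.2%. IDs that start with TaAffx made up 29.1%, 33.8% and 48.5%. Part of the shift away from the whole array was thus also seen among bright probe sets, and no test was made of the rest.

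Of the 165 members, 7 had a gene in the platform annotation (4.24%, beside 2.08% of all probe sets), from 4 genes. RefSeq lists all 4, found through the Entrez ID, under a LOC symbol with no descriptive name, so no function is given. LOC542796 (Ta_14281_1_S1_at) had 5.82, 4.05 and 6.58 at LP and 8.29, 8.50 and 7.49 at CP in Xindong20, and 8.09, 8.80 and 9.36 at LP and 9.72, 8.37 and 8.05 at CP in Xindong23. The Xindong20 LP arrays lay below all others, and the average variety difference of -1.95 did not pass (SE 0.46, limma adjusted p = 0.0711). LOC542839 (Ta_224_1_S1_at) had 6.51, 7.03 and 6.56 at LP and 7.18, 8.70 and 9.12 at CP in Xindong20, so that CP1 lay close to LP2, and 7.19 to 8.04 in Xindong23.

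LOC606373 was read by 8 probe sets, 3 of them members. All 8 had a negative difference in Xindong20, from -2.15 to -0.44, and in 6 all LP arrays lay below all CP arrays. In Xindong23 the differences ran from -1.23 to 0.09. The member Ta_3957_1_A1_x_at had 8.05, 6.69 and 6.78 at LP and 9.22, 8.82 and 9.04 at CP in Xindong20, and 8.42, 8.64 and 8.78 at LP and 8.51, 8.84 and 8.89 at CP in Xindong23. Here the Xindong20 LP arrays lay below all others and Xindong23 was level. Its companions Ta_3957_1_A1_at and Ta_3957_2_A1_x_at had differences of -1.63 and -2.15 in Xindong20 and of -0.10 and -0.41 in Xindong23. The -1.23 in Xindong23 belonged to TaAffx_9851_1_S1_s_at, which was no member and had -2.14 in Xindong20. The Xindong23 difference rested on 1 array, LP3, with 7.25, 7.53 and 3.15 at LP and 7.10, 7.36 and 7.16 at CP. In Xindong20 LP3 was also by far the lowest, with 7.02, 6.49 and 3.71 at LP and 7.97, 8.08 and 7.58 at CP. TaAffx_9851_1_S1_at, also no member, had 7.26, 6.82 and 5.95 at LP and 7.99, 8.30 and 7.95 at CP in Xindong20, and 5.98 to 6.73 in Xindong23. It was the 1 probe set of this gene called in the average variety difference described above (0.99, SE 0.22, limma adjusted p = 0.0491).

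LOC100125710 was read by 3 probe sets, 2 of them members, and in all 3 the Xindong20 LP arrays lay below the CP arrays. Ta_30736_1_A1_at had 7.42, 7.43 and 7.86 at LP and 8.68, 10.76 and 8.22 at CP in Xindong20, and 6.69 to 7.80 in Xindong23. Its difference of -1.65 leaned on CP2, the highest of all 12 arrays. Ta_30736_2_A1_x_at had 9.85, 10.21 and 10.12 at LP and 11.77, 12.23 and 11.05 at CP in Xindong20, and 9.87 to 10.82 in Xindong23, so that LP2 and LP3 lay within the range of the other variety and LP1 at its lower end. The third probe set, Ta_29478_1_S1_at, had -1.04 in Xindong20 and 0.12 in Xindong23. None of the 7 members with a gene was called in the average variety difference.

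Genes with a descriptive name were absent from the members. Of 200 probe sets for 102 such genes on the array, 0 met the rule, and at the overall share of 0.27% such a count is near the background. The 14 gene lists that were looked up, among them phosphate transport, antioxidant enzymes, dehydrins and LEA proteins, fructan and starch enzymes, hormone enzymes, ion transport and cell wall, held 46 genes on 112 probe sets. No gene was found for phosphate starvation and transport. The median LP minus CP difference over these probe sets in Xindong20 was -0.09, beside -0.05 over all probe sets. Their most negative values were -1.72 in the defence list and -1.45 in the grain storage list. The leaf and photosynthesis list (3 genes, 31 probe sets) had a median of -0.08 in Xindong20, and the grain storage list (8 genes, 17 probe sets) one of -0.14. Limma called 1 probe set of the antioxidant list and 1 of the methyl cycle list in Xindong20, where 1.75% of all probe sets were called in either direction. It called none of the 112 in the average variety difference, where 1.82% of all probe sets were called and 7080 had an unadjusted p under 0.05. At that share a count of 0 among 112 is near the background.

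Another 164 probe sets met the Xindong20 conditions and differed by 0.5 or more in Xindong23, 79 with lower and 85 with higher LP means there. Of the 79, 12 were lower by at least 1.5 in Xindong23 too. Among the 164, limma called 4 (2.44%) in the average variety difference, beside 30 of 165 (18.2%) among the members. The Xindong23 mean was below the Xindong20 LP mean for 5 of the 164 and for 25 of the members. No test of the difference between these sets was made. A probe set that is dim in Xindong23 is flat there, so the condition that splits the sets favours such probe sets among the members. Nothing about the members is read from these comparisons.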

How the data were processed

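RNA from roots was measured on 12 Affymetrix wheat arrays, 3 in each of 4 groups. The values deposited by the authors were taken as log2 intensities. The sources used here do not name the log base, which was read from the range. The submitters' processing notes list RMA and Affymetrix Expression Console 1.4.1, with no role or order. RMA sets arrays to a common distribution, which would remove a shift common to nearly all transcripts. The genome build is not given in the sources used here. No columns of per-sample values were left unused.

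Of 61290 probe sets, 111 controls were left out and 61179 were tested without a filter, 64 reporter probe sets among them. Limma 3.58.1 in R 4.3.3 was fitted with 1 mean per group on all 12 arrays (8 residual and 2.28 prior degrees of freedom), two-sided, with Benjamini-Hochberg adjustment over all probe sets in each of 6 contrasts and calls at an adjusted p under 0.05. The fit was tested on simulated data. P-values measure the spread between these arrays, which may be technical in part, and the number of arrays limits the precision. Folds are 2 raised to a difference of group means, and a fold against a dim mean is a lower bound. Probe sets of 1 cluster share the number in their ID.

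Members and gene lists were chosen with earlier results of these data known. Named were members with 1 annotated gene, the 10 most negative differences (1 per cluster number) with their cluster partners, probe sets next to the thresholds, the 4 largest called variety differences in each direction, and the brightest and dimmest member. Chosen after seeing values, outside this rule, were Ta_6961_1_S1_at, the other probe sets of annotated members' genes and the 114 probe sets higher in Xindong20. The alternatives were other normalizations, single arrays or both LP3 arrays left out, variance and weight settings, a filter on dim probe sets, a replicate block, a spike covariate and other thresholds of the rule. Same-numbered arrays of different groups deviated together with correlations from -0.21 to 0.76, not all above 0.1, so the numbers were not taken to pair the arrays.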

Additional observations from a re-analysis of the deposited data

Results flagged for a closer look

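The low-phosphorus response of Ta_6961_1_S1_at differed between the varieties by -2.19 (log2, limma adjusted p = 0.0455), with all 3 Xindong20 LP arrays below the other 9 arrays. The membership rule favours such a difference, and under 14 of 20 alternative settings it was not past the threshold. Its value ran from -2.44 to -1.73 over those settings.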

How the results depend on the processing

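The count of members (165) depends on the rule's thresholds by construction: 457 with a difference of at least 1.0, 60 with at least 2.0, 99 with a Xindong23 difference under 0.25 and 260 with one under 1.0. It was 226 with no separation of arrays asked, 149 with dim probe sets filtered, 201 (162 shared) after quantile normalization and 152 (149 shared) after median centring. Leaving out 1 array at a time gave 147 to 368 members, with 105 to 160 shared. Where it was a Xindong20 array, the separation condition was easier to meet. The 1112 probe sets called in the averaged variety difference became 1928 without both LP3 arrays, 2092 with the spike covariate, 3056 with array weights and 671 to 1834 with 1 array left out. The 30 members called became 18 with dim probe sets filtered, since 16 members then left the fit, and 18 to 37 with 1 array left out. The cause of the other changes was not tested. The replicate block gave 997 probe sets and 27 members called. Of 254 repeats of the named members' variety calls, 195 stayed past the threshold and 59 did not, with no change of sign. The 6 members Ta_3242_1_A1_a_at, Ta_30566_1_S1_at, TaAffx_115792_1_S1_at, TaAffx_104444_1_S1_at, Ta_27235_1_S1_at and Ta_9655_1_A1_x_at were called under every setting run. With 3 arrays per group and no detection calls, differences at levels below 4.26 are limited by background.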
